A study of Mus musculus with 16 samples.

Results

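The genotype by operation interaction asks whether the transcriptional response of the kidney cortex to ischaemia-reperfusion injury (IRI) differed between mice deleted for Degs1 and their floxed littermates. It was computed for every gene as the IRI response in Degs1iGKO mice (iGKO), IRI minus sham, minus the IRI response in Degs1fl/fl mice (fl/fl), also IRI minus sham, and it used all 16 of the 16 libraries. A value below 0 on the log2 scale means that the response was more negative, or less positive, in iGKO. The 4 groups were iGKO IRI, iGKO sham, fl/fl IRI and fl/fl sham, with 4 libraries each. All were male mice on a C57Bl/6J background with both Degs1 alleles floxed, and every animal, the fl/fl controls included, received tamoxifen at 3 mg for 5 days at 9 weeks of age. The iGKO mice also carried Rosa26-CreERT2, a ubiquitous promoter driving a tamoxifen-inducible Cre recombinase, so the deletion was global and not limited to the kidney; the protocol names no Cre for the controls, so Cre activity and the loss of Degs1 cannot be told apart. Surgery followed at 12 weeks: bilateral clamping of the renal pedicles, stated as 28 min unless otherwise indicated, with reperfusion lasting up to 24 h, or a sham operation. All libraries carry the same batch label. A library is named by its group and replicate number, as in fl/fl IRI 1; the labels list separate samples and do not state whether each came from a separate animal, so p-values measure the spread between these samples.

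Degs1 encodes dihydroceramide desaturase, which introduces the double bond that turns dihydroceramide into ceramide at the end of de novo synthesis. Ischaemia injures chiefly the proximal tubule, whose cells lose transporters and brush border and switch on repair genes such as Havcr1, which encodes kidney injury molecule KIM-1, and Sox9, a transcription factor of regenerating tubule. Stress signalling in the injured cells induces immediate early transcription factors of the AP-1 family and chemokines that draw neutrophils.

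Expression levels are counts divided by the TMM-scaled library size (CPM), and they compare libraries for 1 gene, not genes with each other. Total counts were 12704273 to 18816343 per library. Degs1, the targeted gene, had 58.4, 54.8, 44.7 and 59.8 CPM in iGKO IRI and 65.3, 50.7, 71.7 and 40.2 CPM in iGKO sham, against 88.8, 115, 133 and 114 CPM in fl/fl IRI and 113, 84.0, 98.7 and 105 CPM in fl/fl sham. Every iGKO library lay below every fl/fl library, as the labels have it. Degs1 reads were reduced and not absent, with 40.2 to 71.7 CPM in iGKO against 84.0 to 133 CPM in fl/fl. The Degs1 interaction was small (log2 -0.23 ± 0.25 SE). Libraries also stood apart in ways the groups do not explain. Mitochondrially encoded genes took 0.443% of counts in iGKO sham 4, against 6.07% to 6.45% in the other 3 iGKO sham libraries. Among the 28 tubular injury markers, fl/fl IRI 1 was the lowest of its group in 17, and among the 28 proximal tubule markers it was the highest in 24. In the opposite direction, iGKO sham 2 had 126 CPM of Havcr1, against 13.2 to 21.7 CPM in the other iGKO sham libraries. Results are therefore given with all 16 libraries and, where it matters, without fl/fl IRI 1. That library is singled out by measured injury markers, which are part of the outcome, so values without it describe the data and do not replace the test on all libraries; every library was also left out in turn.

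With all 16 libraries, 0 of 17972 genes (0%) were called for the interaction, where a gene is called at a Benjamini-Hochberg adjusted p under 0.05 by edgeR's quasi-likelihood test; the smallest adjusted p was 0.244. At an unadjusted p under 0.05 there were 863 genes (4.8%) with a higher and 1170 genes (6.51%) with a lower response in iGKO. Other tools called genes on the same 16 libraries. The Wald test of DESeq2 called 113, of which 29 were higher and 84 lower, and limma-voom with sample quality weights called 1163, of which 544 were higher and 619 lower. The voom weights were lowest for iGKO sham 4 (0.151), fl/fl IRI 4 (0.193) and fl/fl IRI 1 (0.395). Without fl/fl IRI 1, edgeR called 381 genes higher (2.07% of 18392) and 395 lower (2.15%), whereas leaving out any of the other 15 libraries called 0. The count of genes called for the interaction thus differed with 1 library and with the tool.

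**Figure D1:**
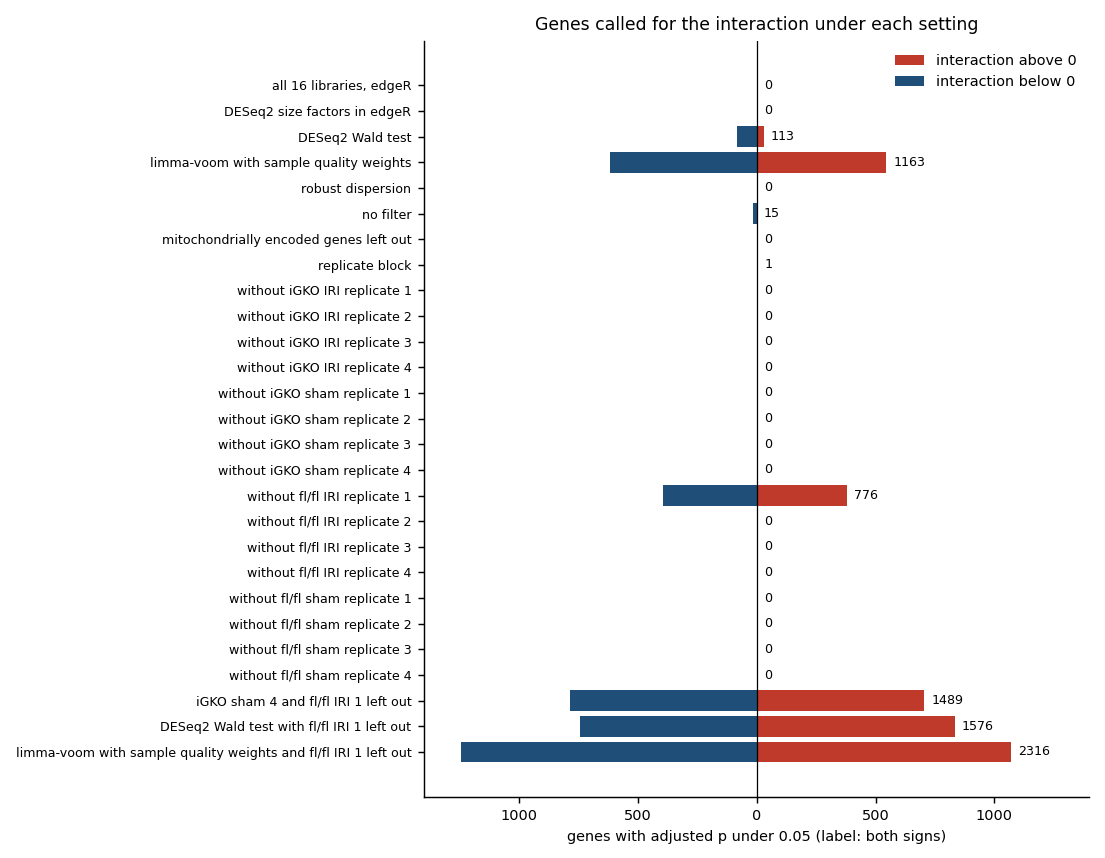
Genes called for the interaction at an adjusted p under 0.05, by analysis setting. Bars to the right count genes with an interaction above 0, bars to the left those below 0, and the number beside each bar is their sum: 0 with all 16 libraries in edgeR and 776 without fl/fl IRI 1.

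Over all genes the response to IRI was smaller in iGKO in its spread. The SD of the log2 response over the 17972 genes was 0.45 in iGKO and 0.80 in fl/fl, and the median absolute response was 0.18 in iGKO and 0.36 in fl/fl. The response was nearer to 0 in iGKO for 12814 genes (71.3%). This share was 62.5% with limma-voom and sample quality weights and 63.9% without iGKO sham 4. With DESeq2 it was 63.4% of 34401 genes, and the SD was 0.90 in iGKO and 1.12 in fl/fl. Without fl/fl IRI 1 the SD was 0.48 in iGKO and 0.98 in fl/fl. Genes are not independent and these are descriptions with no test. The median interaction over all genes was -0.02 after TMM scaling, which itself centres the bulk of genes.

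Among the 12 genes with the smallest p and an interaction below 0, several are injury and repair genes of the tubule. None of them was called on all 16 libraries. Each of the 12 was called without fl/fl IRI 1. Of these, 11 are named here: Clu, the secreted chaperone clusterin; Plaur, the urokinase receptor; Nfkbiz, a nuclear regulator of NF-kB target genes; Myc; Sox9; Akr1b8, an aldo-keto reductase; Sprr2g, a small proline-rich protein; Gdf15, a stress-induced cytokine; Cxcl1, a neutrophil chemokine; Krt20, a keratin; and Havcr1.

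Promoter sequences from RefSeq (build GRCm38.p6, 250 bases before to 50 after the annotated start, transcribed strand) were found for 6 of these 12 genes, and were searched on both strands for the AP-1 motif TGANTCA. It is shown because AP-1 genes are among those with lower responses below. Plaur was the 1 gene of the 6 with a match, which starts 69 bases before the annotated start, and Havcr1 held none. The match is in capitals; the capitals mark letters and not a tested site. Of all 32851 promoter entries, 7.808% held the motif, whereas only the first entry was searched for each named gene. Among the 12 genes with the smallest p and an interaction above 0, 0 of 10 matched promoters held it.
Plaur promoter, chr7:24462233-24462532, plus strand: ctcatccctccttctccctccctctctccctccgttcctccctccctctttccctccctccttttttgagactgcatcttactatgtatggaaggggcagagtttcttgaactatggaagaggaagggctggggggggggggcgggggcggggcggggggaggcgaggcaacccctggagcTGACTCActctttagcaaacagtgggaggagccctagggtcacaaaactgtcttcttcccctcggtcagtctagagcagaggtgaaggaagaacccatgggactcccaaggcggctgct
Havcr1 promoter, chr11:46739973-46740272, plus strand: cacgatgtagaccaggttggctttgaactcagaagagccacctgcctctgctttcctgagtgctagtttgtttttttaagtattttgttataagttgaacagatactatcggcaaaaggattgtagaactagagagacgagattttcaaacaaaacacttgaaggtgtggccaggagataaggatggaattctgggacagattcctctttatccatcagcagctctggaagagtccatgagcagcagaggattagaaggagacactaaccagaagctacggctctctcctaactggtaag

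Havcr1 had 84.0, 104, 28.0 and 122 CPM in iGKO IRI and 19.5, 126, 13.2 and 21.7 CPM in iGKO sham, against 101, 1325, 1666 and 710.3 CPM in fl/fl IRI and 8.53, 4.15, 10.1 and 24.7 CPM in fl/fl sham. The IRI groups overlapped through fl/fl IRI 1, which sat among the iGKO IRI libraries. The response was 0.91 ± 0.78 log2 (SE) in iGKO and 6.32 ± 0.97 in fl/fl, an interaction of -5.42 ± 1.17 (edgeR adjusted p = 0.244). The difference of iGKO minus fl/fl was -3.49 after IRI and 1.93 after sham, and without iGKO sham 2 the interaction was -4.10. Krt20 had the largest interaction of the 11, -7.90 ± 1.71, with 10.7, 6.66, 5.75 and 8.99 CPM in iGKO IRI and 1.13, 34.4, 1.29 and 3.30 CPM in iGKO sham, against 10.3, 115, 475 and 894 CPM in fl/fl IRI and 0.711, 0.259, 2.10 and 4.75 CPM in fl/fl sham. It too was high in iGKO sham 2, and its interaction was -5.50 without that library.

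Other injury genes among the 12, Clu, Plaur and Sox9, separated the IRI groups in every library. They were named for a small p, which favours such separation. The share of all genes whose IRI groups do not overlap was not computed, so separation here and below is a description. Clu had 423, 361, 243 and 392 CPM in iGKO IRI and 252, 329.5, 253 and 328 CPM in iGKO sham, against 609.9, 1669, 2197 and 921 CPM in fl/fl IRI and 196, 254, 171 and 245 CPM in fl/fl sham. The lowest fl/fl IRI library, fl/fl IRI 1, lay above the highest iGKO IRI library. The Clu interaction was -2.35 ± 0.44 (edgeR adjusted p = 0.244 on all libraries, 0.00203 without fl/fl IRI 1). Plaur had 12.8, 18.2, 11.2 and 24.0 CPM in iGKO IRI and 5.86, 8.54, 4.64 and 6.81 CPM in iGKO sham, against 29.8, 46.6, 85.3 and 132 CPM in fl/fl IRI and 5.06, 2.40, 4.61 and 3.56 CPM in fl/fl sham. The IRI groups did not overlap, and the response was 1.36 ± 0.39 in iGKO and 4.23 ± 0.43 in fl/fl. Sox9 had 3.79, 3.21, 3.60 and 5.74 CPM in iGKO IRI and 1.65, 4.89, 1.23 and 3.37 CPM in iGKO sham, against 12.2, 36.6, 67.6 and 224 CPM in fl/fl IRI and 1.90, 3.24, 2.24 and 2.31 CPM in fl/fl sham. It separated the IRI groups as well, and its response was 0.55 ± 0.66 in iGKO and 5.13 ± 0.72 in fl/fl.

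**Figure D2:**
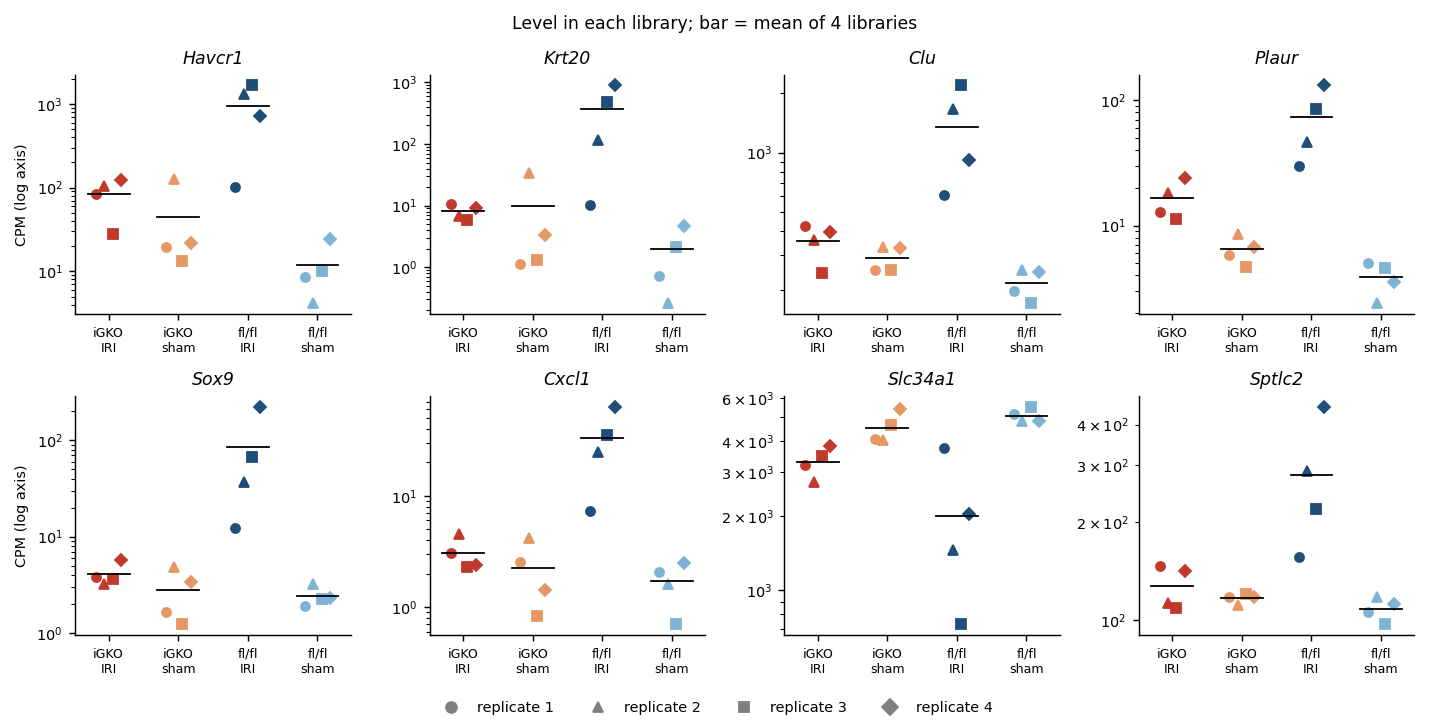
CPM on a log axis in each of the 16 libraries for 8 genes, with 1 symbol per replicate number and a bar at the mean of each group. Havcr1, Krt20, Clu, Plaur, Sox9 and Cxcl1 are high in fl/fl IRI 2 to 4, with fl/fl IRI 1 the lowest of its group. For Slc34a1 fl/fl IRI 1 is the highest of its group. Sptlc2 is high in fl/fl IRI 2 to 4, with fl/fl IRI 1 just above the highest iGKO IRI library.

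Over the full list of 28 tubular injury markers, the median response was 0.87 in iGKO and 2.05 in fl/fl, and the median interaction was -1.53, beside -0.02 over all genes. An unadjusted p under 0.05 was reached below 0 by 16 of the 28 and above 0 by 0, against the 6.51% and 4.8% of all genes given above. This list and those below were chosen with earlier results of these data known, so such counts are descriptions and no test of a list. Without fl/fl IRI 1, 15 of the 28 were called, all lower, against 2.15% of all genes. That library was singled out by these same markers, so the excess is partly built in and is no test of the list. The summed level of the list was 2742 to 5036 CPM in iGKO IRI and 1882 to 3448 CPM in iGKO sham, against 5110 to 19274 CPM in fl/fl IRI and 1520 to 2161 CPM in fl/fl sham. The members did not move as 1 block. Spp1, the osteopontin gene, had an interaction of -2.49, Tnfrsf12a, the TWEAK receptor, -2.50, and the fibrinogen chain genes Fga, Fgb and Fgg -3.54, -3.99 and -3.71. In contrast Vim, which encodes vimentin, had 0.47, Krt7 -0.08 and Tm4sf1 -0.06. The median difference of iGKO minus fl/fl over the list was -1.37 after IRI and 0.43 after sham.

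Immediate early genes, which are transcribed within minutes of a stimulus without new protein synthesis, had a median response of 0.56 in iGKO and 2.18 in fl/fl. The median interaction was -1.65, or -1.20 without fl/fl IRI 4 and -1.85 without fl/fl IRI 1. Of the 20, 14 had an unadjusted p under 0.05 below 0 and 0 above 0, beside 6.51% and 4.8% of all genes. Without fl/fl IRI 1, 9 were called lower, beside 2.15% of all genes. That library was the lowest of its group in 14 of the 20, so this excess too is partly built in and is no test. Myc had 24.9, 16.1, 20.9 and 21.8 CPM in iGKO IRI and 16.0, 21.6, 9.11 and 13.9 CPM in iGKO sham, against 22.8, 43.5, 71.0 and 113 CPM in fl/fl IRI and 8.22, 7.46, 6.08 and 9.01 CPM in fl/fl sham. Its interaction was -2.56 ± 0.52, and only fl/fl IRI 1 fell within the range of iGKO IRI. The AP-1 subunit genes Jun, Junb and Fosl2 had interactions of -1.62 ± 0.36, -1.67 ± 0.42 and -1.67 ± 0.45, whereas Fos had -0.39 and Egr3 1.05. Egr1, another immediate early transcription factor, had -2.31.

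Cytokines and chemokines had a median interaction of -1.73 over 17 tested of 20. Cxcl1 had 3.04, 4.50, 2.27 and 2.37 CPM in iGKO IRI and 2.55, 4.21, 0.838 and 1.41 CPM in iGKO sham, against 7.32, 25.0, 35.2 and 63.5 CPM in fl/fl IRI and 2.05, 1.62, 0.699 and 2.52 CPM in fl/fl sham. Its response was 0.44 ± 0.57 in iGKO and 4.25 ± 0.61 in fl/fl, with no overlap of the IRI groups. Cxcl2, also a neutrophil chemokine, had -3.01 ± 0.87, Lif, a cytokine of the interleukin-6 family, -3.43 ± 0.88, and Il34, a ligand of the macrophage receptor CSF1R, -2.59 ± 0.56. Ccl2, the monocyte chemokine, did not share this pattern: its response was 1.60 in iGKO and 1.59 in fl/fl, and the sign of its interaction of 0.01 changed between settings. An unadjusted p under 0.05 was reached by 6 members below 0 and by 0 above 0, beside 6.51% and 4.8% of all genes. The list median moved most when fl/fl IRI 2 was left out, to -0.66.

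Neutrophil markers had the lowest list median, -1.84, and all 9 tested members of 12 were below 0, with a median response of 1.44 in iGKO and 3.71 in fl/fl. S100a9, a calgranulin subunit, had 8.46, 7.46, 4.23 and 1.55 CPM in iGKO IRI and 5.48, 1.55, 2.51 and 0.270 CPM in iGKO sham, against 4.58, 24.6, 60.9 and 10.7 CPM in fl/fl IRI and 2.21, 1.04, 1.05 and 1.26 CPM in fl/fl sham. The IRI groups overlapped and the interaction was -3.03 ± 1.09. Of the 9, 4 had an unadjusted p under 0.05, beside 6.51% of all genes below 0. Without fl/fl IRI 1, 0 were called, beside 2.15% of all genes called lower. The summed level of the 9 was 14.1 to 52.2 CPM in iGKO IRI and 3.98 to 24.3 CPM in iGKO sham, against 31.9 to 261 CPM in fl/fl IRI and 7.07 to 16.1 CPM in fl/fl sham. In bulk RNA fewer cells of a type and less RNA per cell cannot be told apart. The 16 monocyte and macrophage markers had a median of 0.41, or 0.14 without fl/fl IRI 4 and 0.97 without fl/fl IRI 1. Their values had different signs, with Cd14, the lipopolysaccharide co-receptor, at -2.60 ± 0.71 (-1.65 without fl/fl IRI 4) and Mrc1, the mannose receptor, at 1.61 ± 0.68.

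Stress response lists had medians below 0 of smaller size. The median interaction was -0.58 over 21 genes of the integrated stress and unfolded protein response, -0.54 over 17 p53 response genes, -0.53 over 18 regulated cell death genes, -0.43 over 19 NRF2 and antioxidant genes and -0.37 over 15 heat shock genes. The number with an unadjusted p under 0.05 below 0 was 10, 6, 9, 7 and 6 in that order, beside 6.51% of all genes. Above 0 it was 1 for the NRF2 and antioxidant list and 0 for the others, beside 4.8% of all genes. The first median was -0.37 without fl/fl IRI 4 and -0.88 without iGKO sham 4, and the heat shock median was -0.22 without iGKO sham 1. Gdf15 had 11.4, 11.8, 15.0 and 16.4 CPM in iGKO IRI and 9.46, 12.4, 6.65 and 18.2 CPM in iGKO sham, against 23.2, 69.0, 75.3 and 142 CPM in fl/fl IRI and 7.59, 12.3, 4.19 and 11.3 CPM in fl/fl sham, an interaction of -2.90 ± 0.62. No fl/fl IRI library reached down into the iGKO IRI range. Cdkn1a, the p21 cell cycle inhibitor, had -2.37 ± 0.71, or -1.39 without fl/fl IRI 4. Chac1, a glutathione-degrading enzyme induced by ATF4, had -3.78 ± 0.98, Srxn1, sulfiredoxin, -2.28 ± 0.61, Hmox1, haem oxygenase, -1.83 ± 0.55, and Hspb1, a small heat shock protein, -2.01 ± 0.48. The cell death genes Casp8, an initiator caspase, and Mlkl, the executor of necroptosis, had -0.85 ± 0.25 and -1.31 ± 0.41. The 22 cell cycle genes had a median of 0.08, which was -0.10 without iGKO IRI 2. Of them, 1 had an unadjusted p under 0.05 above 0, beside 4.8% of all genes, and edgeR called 0 with or without fl/fl IRI 1.

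The lists of tubule segment markers had median interactions above 0, with median responses further below 0 in fl/fl. The median over 28 proximal tubule markers was 0.88, from a median response of -0.42 in iGKO and -1.24 in fl/fl. Of the 28, 9 had an unadjusted p under 0.05 above 0 and 0 below 0, beside 4.8% and 6.51% of all genes. Slc34a1, the main sodium-phosphate cotransporter of the proximal tubule, had 3225, 2741, 3493 and 3817 CPM in iGKO IRI and 4079, 4040.1, 4663 and 5435 CPM in iGKO sham, against 3760.1, 1450.5, 729 and 2038 CPM in fl/fl IRI and 5158, 4818, 5536 and 4836 CPM in fl/fl sham. Again fl/fl IRI 1 sat in the iGKO IRI range and the other 3 lay below it. The interaction was 0.89 ± 0.47 with all libraries and 1.40 ± 0.36 without fl/fl IRI 1 (edgeR adjusted p = 0.489 and 0.0379). That library was singled out partly by the proximal tubule list, so the second value is a description only. Gatm, which makes the creatine precursor guanidinoacetate, had 464, 275, 552 and 436 CPM in iGKO IRI and 440.3, 453, 711 and 306 CPM in iGKO sham, against 336, 95.7, 48.5 and 20.0 CPM in fl/fl IRI and 589, 644, 611 and 553 CPM in fl/fl sham, an interaction of 2.12 ± 0.79. As with Slc34a1, fl/fl IRI 1 lay within the range of iGKO IRI, and the other 3 fl/fl IRI libraries lay below every other library.

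The thick ascending limb markers had all 10 members above 0 with a median of 0.94, and 4 had an unadjusted p under 0.05, beside 4.8% of all genes above 0. Slc12a1, the furosemide-sensitive NKCC2 transporter, had 171, 485, 429 and 364 CPM in iGKO IRI and 453, 439, 602 and 436 CPM in iGKO sham, against 233, 44.9, 98.4 and 129.6 CPM in fl/fl IRI and 573, 416, 741 and 564 CPM in fl/fl sham. The IRI groups overlapped because iGKO IRI 1 was lower than fl/fl IRI 1, and the interaction was 1.77 ± 0.54. Cldn19, a claudin of the tight junctions for magnesium reabsorption, had 1.35 ± 0.40. Umod, the uromodulin gene of the same segment, had 0.42 ± 0.40, or 0.19 without fl/fl IRI 2. The median over 10 distal convoluted and connecting tubule markers was 0.72, with Kl, the co-receptor Klotho, at 1.21 ± 0.46, and that over 15 collecting duct markers 0.28. Leaving out fl/fl IRI 1 gave a median of 1.46 for the thick ascending limb list and 1.09 for the distal list, and 1.83 for Kl and 3.31 for Gatm. That library was the highest of its group in 8 of the 10 thick ascending limb markers and 7 of the 10 distal markers. In the other direction, the thick ascending limb median was 0.72 without fl/fl IRI 4, and the distal median was 0.57 without fl/fl IRI 3. Podocyte markers had a median of 0.15, or 0.01 without fl/fl IRI 4, and endothelial markers 0.31.

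**Figure D3:**
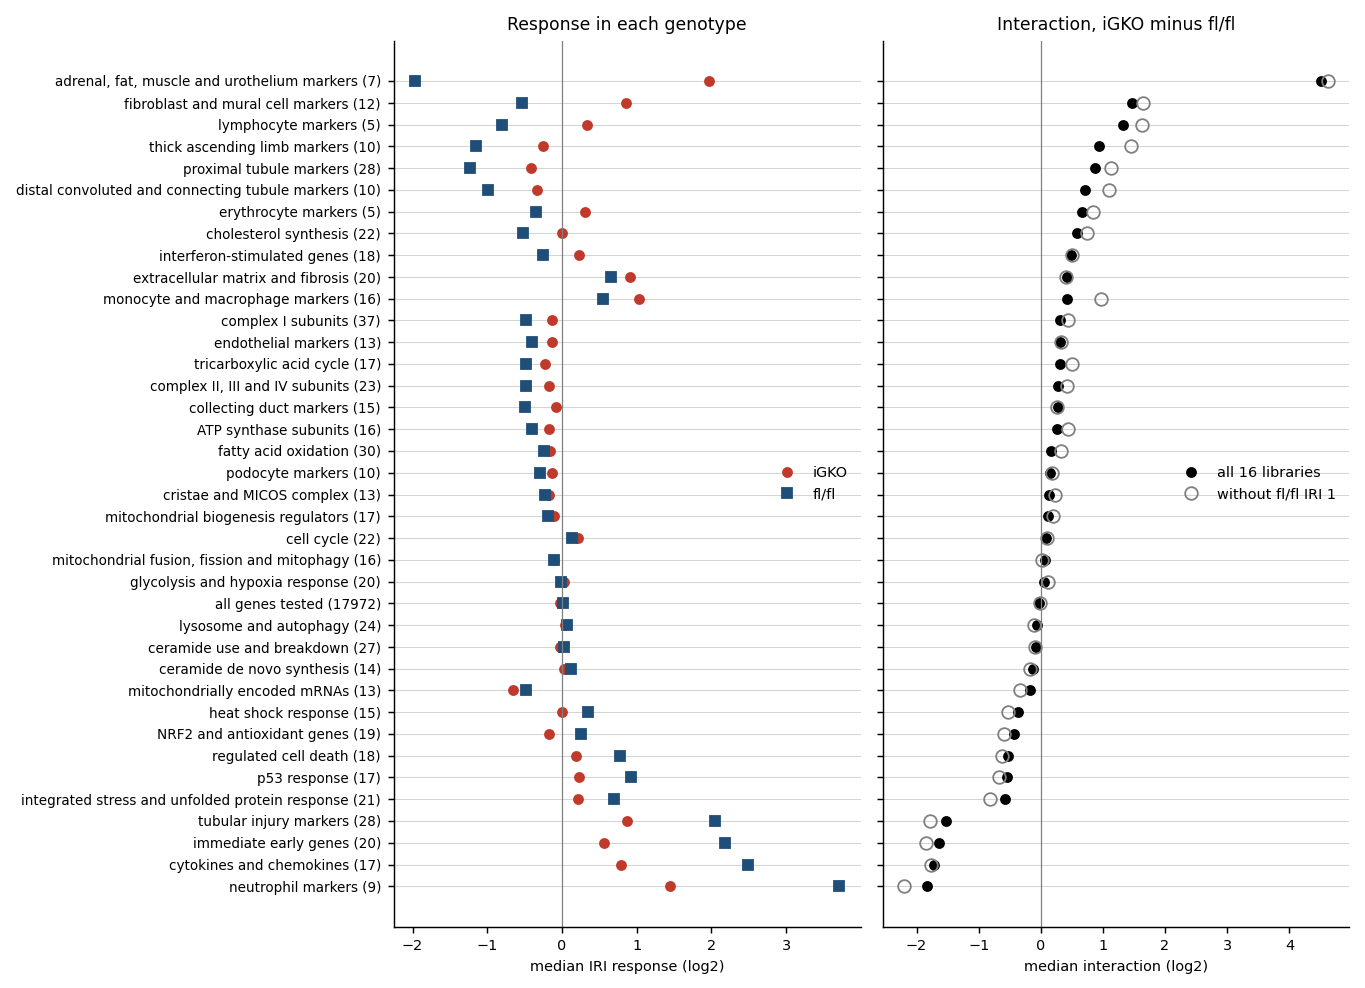
Median over the tested members of each of 37 gene lists and over all genes, with the number tested in brackets. Left, median log2 IRI response in iGKO (circles) and in fl/fl (squares); right, median interaction with all 16 libraries (filled) and without fl/fl IRI 1 (open). Injury, immediate early, cytokine and neutrophil lists lie below -1.5 on the right, and the 4 tubule segment lists above 0.

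Metabolic gene lists also had medians above 0, of smaller size. Complex I subunits of the respiratory chain had a median interaction of 0.32 and 36 of 37 were above 0, although 3 reached an unadjusted p under 0.05; the median response was -0.14 in iGKO and -0.48 in fl/fl. Complexes II, III and IV had 0.28 over 23 genes, ATP synthase 0.26 over 16, and the tricarboxylic acid cycle 0.30 over 17. Single libraries moved these 4 medians: without fl/fl IRI 3 they were 0.19 for complex I, 0.18 for complexes II to IV and 0.19 for the tricarboxylic acid cycle, and without fl/fl IRI 1 they were 0.42 for complexes II to IV, 0.44 for ATP synthase and 0.49 for the tricarboxylic acid cycle. An unadjusted p under 0.05 was reached by 0, 0 and 2 genes of the last 3 lists. These counts and that of complex I stand beside 4.8% of all genes above 0. Without fl/fl IRI 1, edgeR called 1 ATP synthase gene, which was higher, and 0 genes of the other 3 lists, beside 2.07% of all genes called higher. Ndufab1, the mitochondrial acyl carrier protein, had 73.6, 69.4, 84.5 and 80.5 CPM in iGKO IRI and 83.6, 85.1, 93.3 and 47.4 CPM in iGKO sham, against 63.0, 61.7, 49.2 and 40.4 CPM in fl/fl IRI and 92.0, 80.3, 85.9 and 87.0 CPM in fl/fl sham, an interaction of 0.68 ± 0.26. Its lowest sham library was iGKO sham 4. Ppargc1a, the coactivator of mitochondrial biogenesis, had 110, 100.5, 118 and 83.7 CPM in iGKO IRI and 132, 135, 144 and 80.7 CPM in iGKO sham, against 79.6, 63.8, 43.7 and 46.5 CPM in fl/fl IRI and 127, 107, 139 and 128 CPM in fl/fl sham. The IRI groups did not overlap, and the interaction was 0.85 ± 0.29 (edgeR adjusted p = 0.316).

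For the 13 mitochondrially encoded mRNAs the median was -0.17, with 10 below 0 and 0 at an unadjusted p under 0.05. It was -0.51 without iGKO sham 4 and 0.03 without iGKO sham 3. Their summed level was 13052 to 27075 CPM in iGKO IRI and 3147 to 44076 CPM in iGKO sham, against 17334 to 31007 CPM in fl/fl IRI and 28505 to 43484 CPM in fl/fl sham, the lowest being iGKO sham 4. Cristae genes had a median of 0.12, or 0.05 without iGKO IRI 4 and 0.23 without fl/fl IRI 1, with Immt, the core MICOS subunit, at 0.11 ± 0.20 and Chchd3 at 0.21 ± 0.21. Fatty acid oxidation genes had a median of 0.16, which was -0.01 without fl/fl IRI 3 and 0.32 without fl/fl IRI 1; Cyp4a14, a PPAR-alpha target, had 1.30 ± 0.57. Cholesterol synthesis had a median of 0.58 with 21 of 22 genes above 0, and a median response of 0.00 in iGKO and -0.52 in fl/fl. Within it, Idi1, isopentenyl diphosphate isomerase, had 1.55 ± 0.49 and Hmgcs1, which makes HMG-CoA, 1.08 ± 0.45. The 18 interferon-stimulated genes had a median of 0.48, with Usp18 at 0.87 ± 0.32 and Ifit3 at 0.80 ± 0.33.

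The ceramide pathway itself gave small list medians, -0.13 over 14 genes of de novo synthesis and -0.08 over 27 genes of ceramide use and breakdown. Without iGKO sham 3 they were -0.06 and -0.04, and the first was -0.34 without iGKO sham 4. Sptlc2 stood out within it. It encodes a catalytic subunit of serine palmitoyltransferase, the first enzyme of the pathway in which Degs1 acts last. Sptlc2 had 147, 113, 109 and 142 CPM in iGKO IRI and 118, 112, 120.4 and 118 CPM in iGKO sham, against 157, 288, 220.3 and 454 CPM in fl/fl IRI and 107, 118, 97.3 and 113 CPM in fl/fl sham. Every fl/fl IRI library lay above every other library. The response was 0.13 ± 0.23 in iGKO and 1.36 ± 0.23 in fl/fl, an interaction of -1.24 ± 0.33 that was not called (edgeR adjusted p = 0.262; 0.00882 without fl/fl IRI 1). Kdsr, the next enzyme, had -0.68 ± 0.27, and Sphk1, a sphingosine kinase, -2.98 ± 0.86, or -1.80 without fl/fl IRI 4. Cers6, a ceramide synthase, had -0.18 ± 0.28 and Degs2, the other desaturase, 0.09 ± 0.49.

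**Figure D4:**
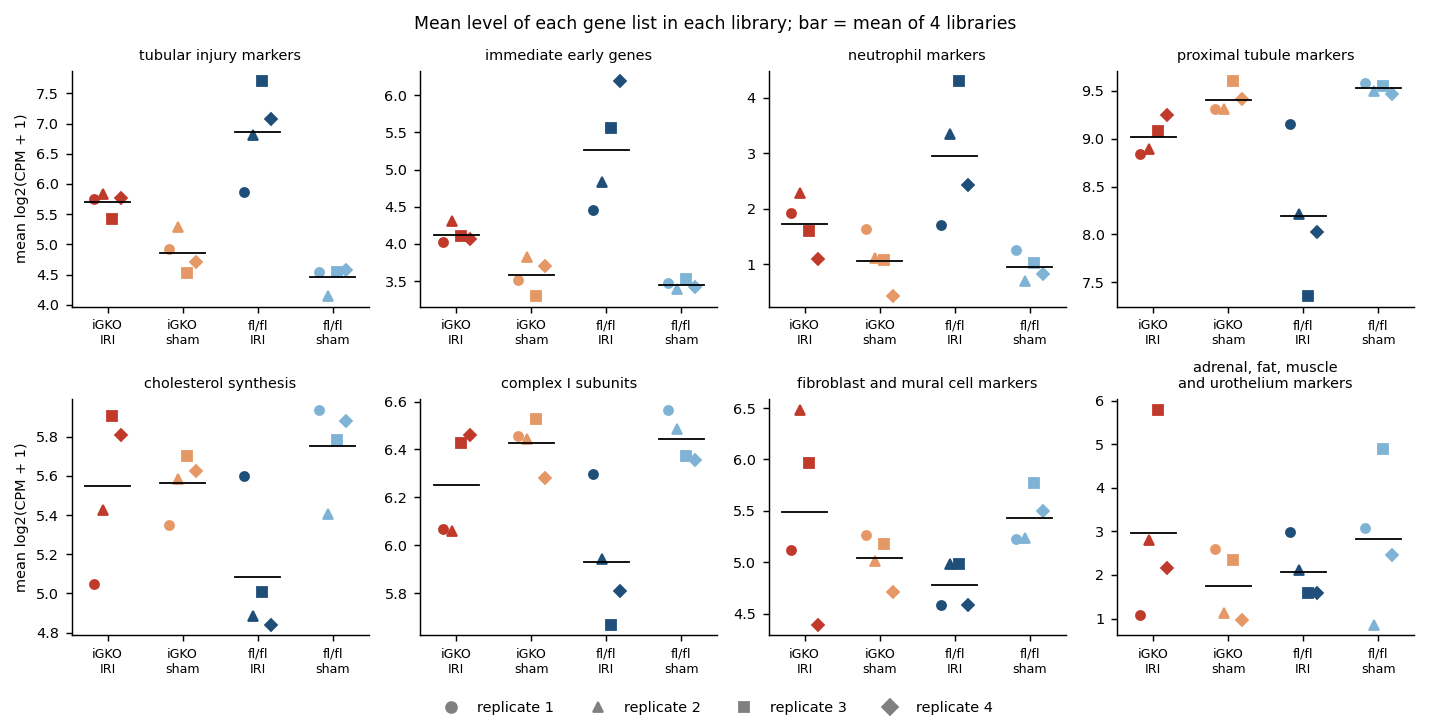
Mean log2(CPM + 1) over the members of 8 gene lists in each library, with 1 symbol per replicate number and a bar at the mean of each group. fl/fl IRI 1 lies apart from fl/fl IRI 2 to 4 in the injury, proximal tubule, cholesterol and complex I lists, and iGKO IRI 3 and fl/fl sham 3 are high in the list of adrenal, fat, muscle and urothelium markers.

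A set of 15 genes fixed by name was tested 1 gene at a time on log2(CPM + 1) by an exact permutation test. Genotype labels were exchanged within each operation in all 4900 ways (two-sided, adjusted by Benjamini-Hochberg over the 15). The p is exact where genotype has no effect in either operation. It is not exact for the interaction alone where genotype has an effect in both, as for Degs1. The set was drawn up with earlier results of these data known. Sptlc2 passed, with an interaction of -1.14 on this scale (exact p = 0.00245, adjusted 0.0367). It did not pass when any of 6 single libraries was left out, with the adjusted p then between 0.0612 and 0.110; these were all 4 iGKO IRI libraries, iGKO sham 4 and fl/fl sham 1. Havcr1, Lcn2 and Sox9 had an adjusted exact p of 0.0536 each, with interactions of -4.55, -2.92 and -3.45. Krt20, Cdkn1a, Ppargc1a and Slc34a1 had adjusted exact p-values of 0.0686, 0.0735, 0.0735 and 0.075. For Degs1, Degs2, Umod, Cers6, Immt, Chchd3 and Ccl2 the adjusted exact p lay between 0.585 and 0.853, which does not show that their responses were alike. Without fl/fl IRI 1, 8 of the 15 passed, with adjusted exact p-values from 0.0122 for Havcr1, Lcn2, Slc34a1 and Sptlc2 to 0.0467 for Ppargc1a. That library was singled out by injury and proximal tubule markers, and the 15 include genes of both kinds. These passes are therefore a description and no test. Il6 was removed by the low-count filter, so it has no value here.

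Of the 12 genes with the smallest p and an interaction above 0, edgeR called 0 on all 16 libraries and all 12 without fl/fl IRI 1. They were Rnf212b, Tenm2, Sfrp4, Cyfip2, Negr1, Fbln1, Fam107a, Megf6, Lrrc66, Myl9, Axin2 and Scara5. Several belong to stromal or vessel wall cells, among them Sfrp4, a secreted Wnt antagonist, Fbln1, the matrix protein fibulin-1, Scara5, a ferritin receptor of fibroblasts, and Myl9, a smooth muscle myosin light chain. Sfrp4 had 0.594, 17.3, 12.1 and 2.30 CPM in iGKO IRI and 1.58, 0.124, 1.90 and 0.270 CPM in iGKO sham, against 0.410, 0.0676, 0.818 and 0.0632 CPM in fl/fl IRI and 1.42, 1.75, 5.10 and 1.89 CPM in fl/fl sham. Its interaction of 5.94 ± 1.38 came with high values in iGKO IRI 2 and 3. Fbln1 had 6.24, 38.7, 19.5 and 8.18 CPM in iGKO IRI and 8.93, 5.75, 8.55 and 11.5 CPM in iGKO sham, against 3.01, 3.18, 3.95 and 3.35 CPM in fl/fl IRI and 8.22, 8.95, 18.4 and 6.78 CPM in fl/fl sham. The same 2 libraries led, yet the IRI groups did not overlap.

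Cyfip2, a subunit of the WAVE actin regulatory complex, had 179.9, 165, 176 and 143 CPM in iGKO IRI and 190, 214, 227 and 200.2 CPM in iGKO sham, against 121, 103, 98.7 and 100.4 CPM in fl/fl IRI and 205, 221, 242 and 220.1 CPM in fl/fl sham. All 4 fl/fl IRI libraries lay below all others, and the response was -0.33 ± 0.12 in iGKO and -1.07 ± 0.12 in fl/fl. Tenm2, a teneurin adhesion receptor, had 1.48, 1.91, 2.46 and 2.03 CPM in iGKO IRI and 1.65, 1.61, 2.40 and 2.36 CPM in iGKO sham, against 0.820, 0.203, 0.409 and 0.316 CPM in fl/fl IRI and 2.21, 1.69, 3.07 and 2.17 CPM in fl/fl sham. Its fl/fl IRI libraries also lay below all others, and the interaction was 2.34 ± 0.50.

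**Figure D5:**
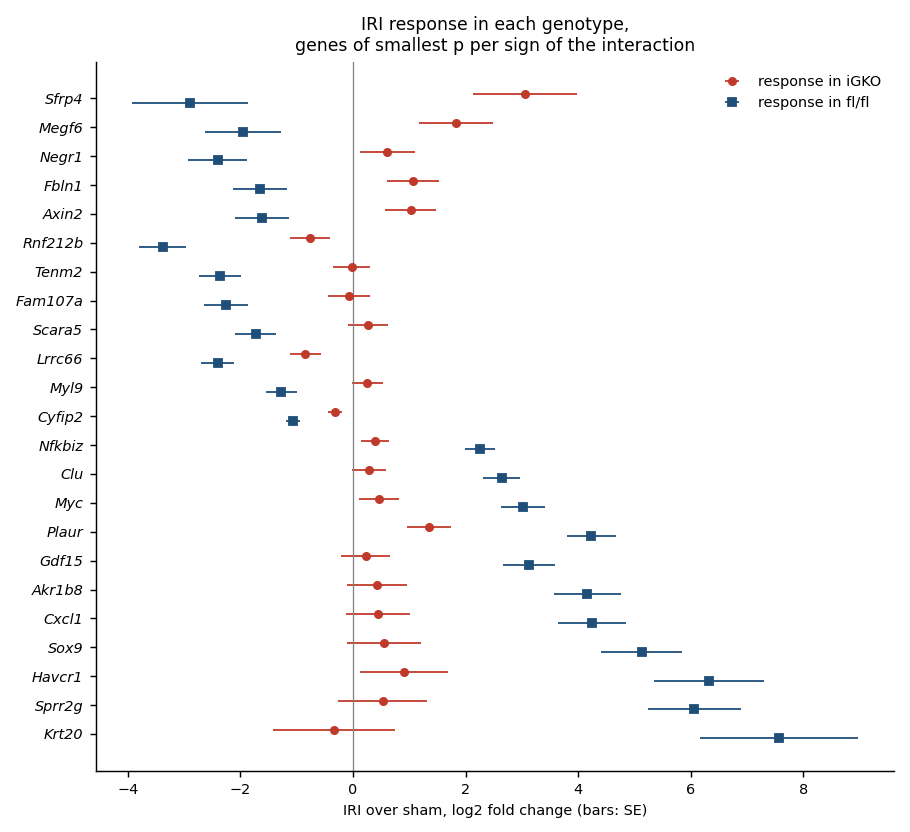
Log2 fold change of IRI over sham (± SE from the edgeR fit) in iGKO (circles) and in fl/fl (squares) for the named genes with the smallest p on each side of 0. For the 11 genes below 0 the iGKO response lies between -0.33 and 1.36 and the fl/fl response between 2.25 and 7.57; for Sfrp4, Megf6, Negr1, Fbln1, Myl9, Axin2 and Scara5 among the others, the responses have opposite signs.

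The 12 fibroblast and mural cell markers had a median interaction of 1.46, from a median response of 0.86 in iGKO and -0.54 in fl/fl. Of the 12, 5 had an unadjusted p under 0.05 above 0, beside 4.8% of all genes. Lum, the collagen-binding proteoglycan lumican, had 1.19, 79.3, 5.31 and 0.473 CPM in iGKO IRI and 3.08, 0.371, 3.63 and 0 CPM in iGKO sham, against 0.957, 0.676, 0.613 and 0.190 CPM in fl/fl IRI and 3.48, 0.973, 5.52 and 4.82 CPM in fl/fl sham. iGKO IRI 2 held most of the reads, and without it the interaction was 2.99 in place of 6.19. Cxcl12, a stromal chemokine, had 1.30 ± 0.42. Markers of tissue beside the cortex shared the sign of these genes. The list of adrenal, fat, muscle and urothelium markers had a median interaction of 4.51. Of its 14 members 7 were tested, and 5 of those 7 had an unadjusted p under 0.05 above 0, beside 4.8% of all genes. Without iGKO IRI 3 the median was 2.61. Its summed level was 29.0 to 964 CPM in iGKO IRI and 16.1 to 104 CPM in iGKO sham, against 52.2 to 130 CPM in fl/fl IRI and 18.7 to 645 CPM in fl/fl sham. The fibroblast and mural cell list had its highest summed level in iGKO IRI 2, 1202 CPM, and its next highest in iGKO IRI 3, 996 CPM. Its highest sham library was fl/fl sham 3, with 848 CPM. The list of adjacent tissue had 106 CPM in iGKO IRI 2 and 964 CPM in iGKO IRI 3. Ucp1, the uncoupling protein of brown fat, had 284 CPM in iGKO IRI 3 and 279.9 CPM in fl/fl sham 3, and at most 27.6 CPM in each of the other 14 libraries, with 0 in iGKO IRI 1, iGKO sham 2 and fl/fl sham 2. Its interaction of 12.51 ± 4.08 was 2.72 without fl/fl sham 3. The part of such tissue in the stromal genes' interactions was not tested.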

How the data were processed

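Kidney cortex RNA was sequenced in 16 libraries. The authors deposited whole-number counts for 56980 Ensembl identifiers, with no normalization applied. Per the submitters' processing notes, the build was GRCm39 and the tools included STAR 2.7.9a, DESeq2 1.36.0, featureCounts 1.6.3 and cutadapt 1.16; the strand setting and the role of each tool are not given in the sources used here. Symbols were matched by identifier for 52073 of them from an annotation of an earlier build, so coordinates are given only for the promoter sequences, in their own build, GRCm38.p6.

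Low counts were filtered by filterByExpr, and the rest were scaled by TMM and fitted with 1 coefficient per group in edgeR 4.0.16 (R 4.3.3). The interaction contrast was tested two-sided with the quasi-likelihood F test and Benjamini-Hochberg adjustment over 17972 genes, at a threshold of 0.05. Each SE was derived from the log2 value and its F statistic. The code was tested on simulated data. DESeq2 1.42.0 and limma 3.58.1 served as alternatives, as did each library left out in turn, no filter, other scalings, robust dispersion and a replicate block. The members, the 37 lists (668 genes, 644 tested) and the tests were chosen with earlier results of these data known. Genes were named as the 12 of each sign with the smallest p, at a mean of at least 1 CPM over all libraries and an established symbol; 1 of the 12 below 0 is not reported here. Up to 4 members of each list with the smallest p and the 16 genes fixed by name were added; Spp1, Tnfrsf12a, Vim, Krt7, Tm4sf1, Fos, Fosl2, Egr1, Egr3, Fga, Fgb, Fgg and Timp2 were named after their values were seen. Same-numbered libraries did not consistently deviate together, although 6 of 24 pairs correlated over 0.1 and the highest reached 0.447. Numbers were not used to pair them. Within groups no pair of libraries agreed within sampling noise, the lowest chi-square per degree of freedom being 8.20.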

Additional observations from a re-analysis of the deposited data

Results flagged for a closer look

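Among 152 groups of 4 values examined with Dixon's test, 10 held a library far from the other 3, and chance alone flags about 1 in 20 groups. In iGKO sham 2, Krt20 had 34.4 CPM, against 1.13 to 3.30 CPM in the other 3 iGKO sham libraries, and Havcr1 had 126 CPM, against 13.2 to 21.7 CPM. Sfrp4 had 5.10 CPM in fl/fl sham 3, against 1.42 to 1.89 CPM in the others of its group, and Negr1 had 0.886 CPM in fl/fl IRI 3, against 0.506 to 0.547 CPM. Fam107a stood apart in both IRI groups, with 11.4 CPM in iGKO IRI 1 against 25.9 to 27.5 CPM in iGKO IRI 2 to 4, and 11.1 CPM in fl/fl IRI 1 against 4.50 to 5.25 CPM in fl/fl IRI 2 to 4. Cdkn1a had 36.9 CPM in iGKO IRI 3, against 23.7 to 25.5 CPM in the others of its group. Mitochondrially encoded genes took 0.443% of counts in iGKO sham 4, against 6.07% to 6.45% in the others of its group, and 4.43% in fl/fl sham 2, against 6.14% to 6.48%. The total count of iGKO IRI 1 was about 12704000, against about 14805000 to 15077000 in iGKO IRI 2 to 4.

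The interaction of Sptlc2 had an adjusted p of 0.0367 by an exact permutation test over 15 genes, a set drawn up with earlier results of these data known. It did not pass in edgeR over all genes (adjusted p 0.262), nor in the exact test without any 1 of 6 libraries (adjusted p 0.0612 to 0.110). The exact test assumes no genotype effect in either operation, and the smallest p this design allows is 0.000408.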

How the results depend on the processing

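The number of genes called, 0 in edgeR with all libraries, was 113 with DESeq2, 1163 with limma-voom and sample quality weights, 15 with no filter, 1 with the replicate block, and 1489 without iGKO sham 4 and fl/fl IRI 1. With 1 library left out it ranged from 0 to 776, the 776 being without fl/fl IRI 1. Chosen after seeing the data, DESeq2 and limma-voom without fl/fl IRI 1 called 1576 and 2316. It stayed at 0 with DESeq2 size factors, robust dispersion and mitochondrially encoded genes left out. The count at an unadjusted p under 0.05, 2033, was 4370 with limma-voom, 5009 without iGKO sham 4 and fl/fl IRI 1, and, chosen after seeing the data, 4322 with DESeq2 and 5239 with limma-voom, both without fl/fl IRI 1. With 1 library left out it ranged from 1484 (fl/fl sham 3) to 3805 (fl/fl IRI 1). Beyond the replicate block's call, the labels' numbers did not consistently pair libraries: same-numbered libraries correlated at -0.360 to 0.447, with 6 of 24 pairs over 0.1.

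The exact permutation's adjusted p with 1 library left out ranged from 0.0122 to 0.110 for Havcr1, Lcn2 and Sptlc2, 0.0163 to 0.110 for Krt20, 0.0271 to 0.110 for Sox9, 0.0122 to 0.182 for Slc34a1, 0.0411 to 0.141 for Ppargc1a, 0.0163 to 0.182 for Cdkn1a, 0.632 to 0.999 for Degs2 and 0.375 to 0.912 for Immt. It was 0.0490 for Havcr1 with a pseudocount of 0.1 CPM. Of 173 named genes, 168 kept the sign of their interaction under all 26 alternative settings. With 1 library left out, the other 5 ranged from -0.063 to 1.17 (Pfkfb3), -0.018 to 0.20 (Immt), -0.16 to 0.58 (mt-Nd4l), -0.19 to 0.30 (Degs2) and -0.56 to 1.20 (Ccl2). Without iGKO sham 4 and fl/fl IRI 1, mt-Nd4l was -0.11 and Ccl2 -0.41; with limma-voom, Degs2 was -0.43 and Ccl2 -0.55; without fl/fl IRI 1, limma-voom gave mt-Nd4l -0.031 and Ccl2 -0.31, and DESeq2 gave Ccl2 -0.051. The causes were not tested. Of 37 list medians, 30 kept their sign whichever library was left out; 7 did not: cell cycle, mitochondrially encoded mRNAs, mitochondrial fusion and mitophagy, mitochondrial biogenesis, glycolysis, fatty acid oxidation, and extracellular matrix and fibrosis (0.42, and -0.23 without iGKO IRI 2). Lum and Ucp1 rest on 1 or 2 libraries that stand apart. No setting varied the depth.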

Other observations

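The 20 extracellular matrix and fibrosis genes were split in direction. Ccn1 and Thbs1, which encode a matricellular protein and thrombospondin-1, had interactions of -1.78 ± 0.49 and -1.08 ± 0.35. Mmp2, the gelatinase A gene, and Timp2, an inhibitor of metalloproteinases, had 3.65 ± 1.11 and 1.00 ± 0.41, and Mmp2 had 1.26 without iGKO IRI 2. Mmp2 averaged 41.5 ± 67.3 CPM in iGKO IRI and 8.00 ± 1.73 CPM in iGKO sham, against 3.75 ± 1.11 CPM in fl/fl IRI and 9.10 ± 2.55 CPM in fl/fl sham (SD, n = 4 each), so its spread within iGKO IRI exceeded the mean. Thbs1 averaged 209.7 ± 48.0 CPM in iGKO IRI and 142 ± 22.4 CPM in iGKO sham, against 333 ± 125 CPM in fl/fl IRI and 106 ± 6.58 CPM in fl/fl sham. None of these 4 was called with all 16 libraries in edgeR.

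Among 24 lysosome and autophagy genes, with a median interaction of -0.07 (-0.15 without iGKO IRI 1), Ctsd, the protease cathepsin D, had -0.63 ± 0.18 with little spread: it averaged 486 ± 47.2 CPM in iGKO IRI and 406 ± 34.7 CPM in iGKO sham, against 685 ± 51.0 CPM in fl/fl IRI and 370.1 ± 27.3 CPM in fl/fl sham (SD, n = 4 each). Pprc1, a coactivator related to Ppargc1a, had -0.90 ± 0.28, opposite in sign to the 0.85 ± 0.29 of Ppargc1a. Aqp4, a water channel of collecting duct principal cells, had an interaction of 4.40 ± 1.27, with 0.445, 20.5, 25.0 and 21.2 CPM in iGKO IRI and 4.73, 5.82, 21.7 and 7.75 CPM in iGKO sham, against 1.16, 0.608, 2.18 and 1.33 CPM in fl/fl IRI and 20.1, 1.49, 36.9 and 8.66 CPM in fl/fl sham. Its sham libraries spanned 1.49 to 36.9 CPM in fl/fl, and iGKO IRI 1 lay below all fl/fl IRI libraries.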
